A study of Homo sapiens with 8 samples.

Results

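The 8 RNA sequencing libraries of HepG2, an established human line from a liver tumour, parted into 2 sets that cut across the labelled groups. The first set held 5 libraries (mock 1, mock 2, mock 3, EDN1 1 and EDN1 2) and the second held 3 (mock 4, EDN1 3 and EDN1 4), so together they are 8 of the 8 libraries of the study. The libraries were chosen by these same counts, with CDK4, MMACHC, PHYHD1, GSPT2 and U2AF2 as the marks of the sets, and no label gives a batch, a date or a run. For this reason every difference between the sets is given as a description with no test.

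The study compared cells labelled mock with cells overexpressing EDN1 (labelled O/E), the gene of the endothelin-1 precursor, a secreted peptide that constricts blood vessels. Each group held 4 libraries. Cells grew in DMEM with serum and antibiotics and had no other treatment, and the labels say neither how EDN1 was introduced nor whether a line is 1 clone. Separate cultures are not stated either, and a p-value here therefore reflects how much the libraries vary, which may be technical.

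The labels name a Lexogen QuantSeq kit, but its catalogue number in the labels could not be matched here to the 3′ end version. In that version the chemistry primes on the poly(A) tail and reads a tag near the end of each polyadenylated transcript. A gene's count would then rest on a short stretch at its end, and whether it does so in these libraries was not tested. Human genes often end close to another gene on the opposite strand, and many have processed pseudogenes, which are copies of the mature transcript elsewhere in the genome. A read from such a stretch can be assigned to either gene, depending on how strand and multiple matches are handled.

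Total counts ranged from 8409173 to 14932385 per library, and 12577 of 24462 genes passed the filter on low counts. The total of each second set library lay at 9132441 or above, and 2 first set libraries exceeded that as well. The 50 most counted genes took 16.37 to 20.2% of the counts in the first set and 17.86 to 22.13% in the second. Markers of hepatocytes summed to 5614 to 7905 CPM (the count scaled by library size) in the first set and 6784 to 7423 CPM in the second, and were present in both sets. Bile duct markers, which liver tumour lines often express, summed to 554 to 897 CPM and 534 to 897 CPM. Defining markers of other cells were low in every library: 6 of fibroblasts (COL1A1, COL1A2, COL3A1, LUM, DCN, PDGFRB) summed to at most 8.7 CPM and 4 of endothelium (PECAM1, VWF, CDH5, KDR) to at most 0.8 CPM. LUM, KDR and the T cell gene CD3E had 0 counts in all 8 libraries. Longer lists, which hold genes that other cells also express, summed higher. The 12 fibroblast and mesenchyme genes, ACTA2 among them, gave 299 to 382 CPM in the first set and 133 to 145 CPM in the second. The 10 endothelial genes gave 84.0 to 133 and 116 to 170 CPM. In bulk RNA, fewer cells of a type and less RNA per cell cannot be told apart.

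The sets lay apart along the leading component of the table. The first principal component of log2 CPM held 40.2% of the variance, and the second set scored 32.81 (mock 4), 17.08 (EDN1 3) and 48.43 (EDN1 4) on it. Of the first set, mock 2 scored 2.87 and the other 4 libraries lay between -30.2 and -21.38. The second component held 29.7% and ran within the sets, from mock 2 at -43.37 to EDN1 3 at 45.81. Pearson correlations across genes were 0.958 to 0.9868 among the 10 library pairs within the first set, 0.9592 to 0.9837 among the 3 pairs within the second, and 0.9358 to 0.9722 among the 15 pairs between the sets. The ranges within and between the sets overlap, and some libraries were closer to 1 of the other set than to 1 of their own. The correlation of mock 2 was 0.9652 with EDN1 4 and 0.958 with mock 1. That of EDN1 3 was 0.9722 with EDN1 1 and 0.9592 with EDN1 4.

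A gene was counted as higher or lower when its fitted difference, with the mock or EDN1 group as a second term, was at least 2-fold and when the 3 libraries of the second set did not overlap the 5 of the first in CPM scaled by TMM. By this rule 635 of 12577 genes (5.05%) parted the sets. Of these, 119 (0.946%) were higher in the second set and 516 (4.1%) were lower. With no demand on size, 2923 genes (23.2%) did not overlap between the sets, 1236 (9.83%) of them higher and 1687 (13.4%) lower. The median over all genes was 0.0050 on the log2 scale, which TMM scaling holds near 0, so all differences are relative to the bulk of the genes. Just inside the size limit lay PDGFA at 1.0001 and MED30 at -1.0014 on the log2 scale, and just outside lay NSMAF at -0.9995 and EXOC3 at -0.9986.

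**Figure D1:**
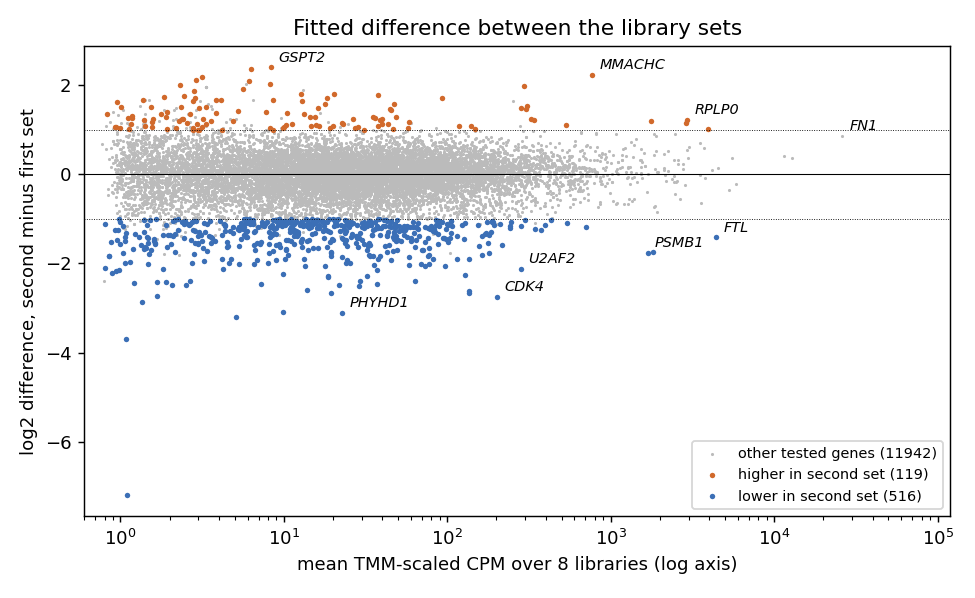
Fitted log2 difference (second minus first set) against mean TMM-scaled CPM over 8 libraries on a log axis, one point per tested gene, with dotted lines at 2-fold. The 516 lower genes outnumber the 119 higher ones both above and below 10 CPM. The lowest point is RNF126P1, which had 0 counts in all 3 second set libraries, so its plotted position is no measured size.

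The 5 genes that mark the sets show the size of the break. CDK4, the cyclin-dependent kinase that drives entry into S phase, gave 317, 211, 315, 322 and 310.1 CPM in mock 1 to 3 and EDN1 1 and 2. It gave 42.4 CPM in mock 4, 57.2 in EDN1 3 and 35.8 in EDN1 4. The means were 295 ± 47.1 (SD, n = 5) and 45.1 ± 10.9 (n = 3), a log2 difference of -2.75 (SE 0.21). No library of the second set came near the first, although mock 2 was the lowest of its set.

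PHYHD1, a dioxygenase related to phytanoyl-CoA hydroxylase, gave 36.8, 20.01, 37.1, 38.1 and 37.4 CPM in the first set and 3.32, 6.49 and 2.66 CPM in the second. Its log2 difference was -3.10 (SE 0.32). U2AF2, the large subunit of the factor that binds the polypyrimidine tract of introns, gave 375, 432, 433, 387 and 359.5 CPM in the first set against 98.0, 95.9 and 71.8 CPM in the second set, a log2 difference of -2.12 (SE 0.15). All 3 genes thus stood at a small share of their first set level in each second set library, mock and EDN1 alike.

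The other 2 marks ran the opposite way. MMACHC, which processes vitamin B12 after uptake, gave 239.5, 276, 293, 464 and 274 CPM in the first set and 1420, 1938 and 1252 CPM in the second, which is a log2 difference of 2.24 (SE 0.21). GSPT2, an intronless copy of the translation termination factor GSPT1, was counted 58, 24, 38, 37 and 20 times in the first set and 279, 224 and 95 times in the second, which is 3.43 ± 0.987 against 16.6 ± 4.91 CPM (SD). Its parent GSPT1, at 351 to 419 CPM in the first set and 289 to 355 in the second, differed by -0.22 on the log2 scale, and its sets overlapped.

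**Figure D2:**
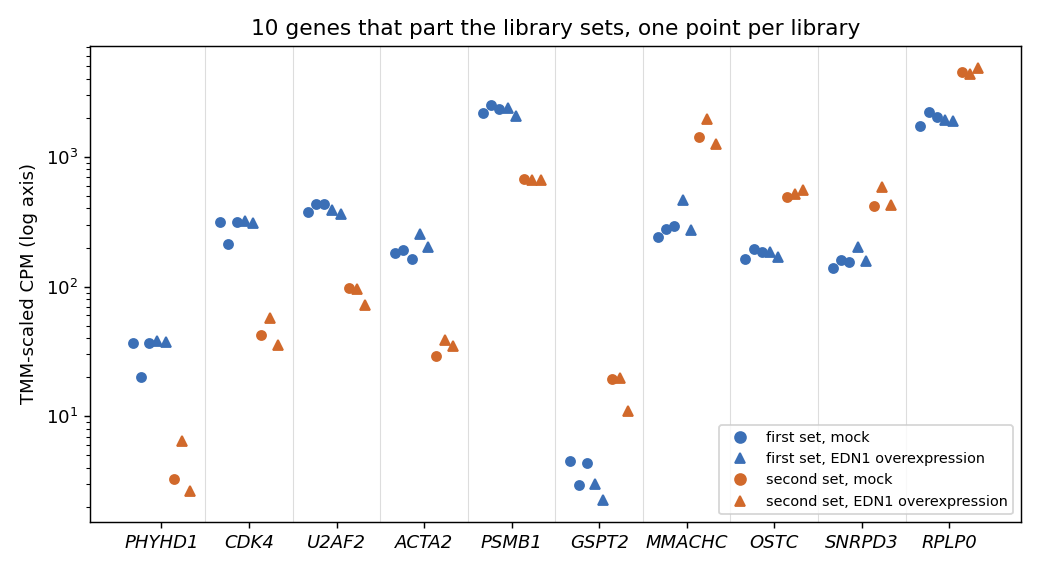
TMM-scaled CPM on a log axis for the 5 marks and 5 further genes named in the text, one point per library, with colour for the set and shape for the labelled group. In each gene the 3 second set libraries lie apart from the 5 first set libraries, whichever group they belong to; genes were chosen for this, so the separation is a description.

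The break was present in both labelled groups. Among the mock libraries alone (mock 4 against the other 3), CDK4 differed by -2.70, PHYHD1 by -3.11, U2AF2 by -2.07, MMACHC by 2.40 and GSPT2 by 2.25 on the log2 scale. Among the EDN1 libraries alone the same genes differed by -2.80, -3.12, -2.17, 2.13 and 2.41. All 635 called genes had the same sign in both groups, a direction that the demand for sets without overlap fixes, and 460 of them reached 2-fold in each group by itself.

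Beyond the marks, the largest differences at 10 CPM or more were spread over unrelated functions. On the higher side stood GGH, which trims polyglutamate from folate (50.3 ± 9.49 against 164 CPM, 1.71), PAM, which amidates peptide hormones (7.25 ± 1.90 against 22.1 CPM, 1.64), and ATF6B, an endoplasmic reticulum stress sensor (10.3 ± 2.31 against 30.3 CPM, 1.59). OSTC, a subunit of the oligosaccharyltransferase, gave 163, 194, 185.5, 186 and 168 CPM in the first set and 490 (mock 4), 518 and 557 CPM in the second, which is a log2 difference of 1.53. Also among the 15 largest were CUEDC1 (1.72), ZNF697 (1.58), C11orf74 (1.48), the actin bundler FSCN1 (1.47) and RRM2B (1.46), a ribonucleotide reductase subunit induced by p53. FLJ44635 (1.99), IL10RB-AS1 (1.78), SNAR-A8 (1.81), SKP1P2 (1.81) and SNRPD3 (1.48) complete the group. SNAR-A8 has near-identical copies, between which counting can split reads.

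On the lower side stood PSENEN, a subunit of gamma-secretase (20.1 ± 3.14 against 3.49 CPM, -2.60), PDZD11, a PDZ domain protein (-2.49), and SLC29A2, a nucleoside transporter (42.3 ± 5.92 against 7.79 CPM, -2.40). RAB11B, a GTPase of recycling endosomes, gave 82.8, 110.5, 79.7, 91.5 and 90.6 CPM in the first set and 17.1, 17.0 and 17.7 CPM in the second, which is a log2 difference of -2.40. ATN1 (-2.30), the zinc finger protein FIZ1 (-2.28), the Mediator subunit MED31 (-2.28) and PGC (-2.26), the precursor of a gastric protease, followed. ACTA2 and ACTA2-AS1 (-2.62 and -2.66), CXADRP2 (-2.66), AMZ2P1 (-2.51) and TIAF1 (-2.47) overlap or resemble another gene and are taken up below. Of the 516 lower genes, 321 averaged 10 CPM or more, and of the 119 higher genes, 55 did.

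Many of the lower genes had one thing in common that the counts had not been asked about, a transcript end rich in cytosine. Bases were counted in the last 200 bases of 1 annotated transcript per gene, a property looked at only after the set differences were known. The lower genes had a median of 28.0% C there (484 with a matched transcript), against 18.5% over all 11849 matched genes and 17.2% in the higher genes (102). The medians for G were nearly level, 20.5% in the lower genes, 19.5% over all genes and 19.5% in the higher genes. The lower genes had less A (23.5% against 29% over all genes) and less T (27.0% against 31.5%). Within these 200 bases, the C of the lower genes was thus above that of all genes by more than their G was. Over the whole transcript the lower genes were richer in GC, a median of 57.3% against 49.5% over all genes and 46.6% in the higher genes. From 500 to 550 bases before the end, their mean G was 27.1% against 23.9% over all genes.

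The windows below are the 30 bases richest in C within the last 200 bases of each transcript, written 5′ to 3′ with C in capitals, from GENCODE release 29 transcripts on GRCh38. The first 5 belong to genes that were lower in the second set and show long, interrupted runs of C and T, and the last 2 belong to genes that were higher.
PHYHD1 (chromosome 9, plus strand): CtggCCCCttCtCaCtCtCCtCtCCtCtCa
U2AF2 (chromosome 19, plus strand): CgCCCagCCCCgtggCCCCtgCCCCtCtCC
PDZD11 (chromosome X, minus strand): CaCCCCttCCtCCtCCtagCCtCtCtCCCa
SLC29A2 (chromosome 11, minus strand): CCgggaCCCaatCCCCtCtCtCtCCtCCCt
FIZ1 (chromosome 19, minus strand): CCtCgaCCttgCCCCCtCgtCCCtCtCCCC
OSTC (chromosome 4, plus strand): CagCtttaCCtatggtgCtttgCCtttaaC
PAM (chromosome 5, plus strand): CtgttagCaCCaaaatCtgaatgCCttaat

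These windows held 16 (PHYHD1), 19 (U2AF2), 18 (PDZD11), 17 (SLC29A2) and 19 (FIZ1) C among 30 bases, and 8 (OSTC) and 7 (PAM) in the genes that were higher. The PHYHD1 window ended 56 bases before the annotated end and that of PDZD11 26 bases before it. Exceptions stood on both sides. FSCN1 was higher in the second set with 20 C in its window and 31.5% C over the last 200 bases, and CUEDC1 was higher with 30.5%. MED31 and AMZ2P1 were lower with 15% and 17%, and CDK4 itself was near the middle at 20.5%.

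The relation ran through the whole table. When genes were ranked by C in the last 200 bases and divided into quintiles, the median log2 difference was 0.113, 0.078, 0.017, -0.051 and -0.252 from the lowest to the highest quintile. The share of genes called lower was 1.01, 0.89, 1.94, 4.43 and 12.15% in the same order, against 4.1% of all tested genes, and the share called higher was 1.27% in the lowest quintile and 0.55% in the highest. Across quintiles of G the medians stayed between -0.061 and 0.037. Splitting genes at both medians gave the same picture: 9.85% of 1635 genes with high C and low G were called lower, 6.01% of 4224 with high C and high G, 1.29% of 4407 with both low and 0.76% of 1583 with low C and high G.

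The stretch that tracked the difference best lay just upstream of the annotated end. Over 11653 genes, the Pearson correlation across genes between the C content of a 50-base bin and the set difference was -0.169 in the last 50 bases, -0.272 from 50 to 100, -0.265 from 100 to 150 and -0.221 from 150 to 200 bases before the end. Farther upstream, out to 600 bases, it lay between -0.179 and -0.15. For G the correlation was -0.02 from 50 to 100 bases and -0.115 at its strongest, from 350 to 400 bases. These correlations are across genes, which share the same 8 libraries and whose neighbouring bins share base composition, so no p is given.

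The pattern was also read in each library. Taking log2 CPM centred on each gene's mean, the median of the highest C quintile minus that of the lowest was 0.029, 0.179, 0.144, 0.197 and 0.183 in mock 1, mock 2, mock 3, EDN1 1 and EDN1 2. It was -0.229, -0.112 and -0.343 in mock 4, EDN1 3 and EDN1 4. The sets did not overlap, while the labelled groups did. C was not alone in this. The same measure for A ran from -0.15 to 0.038 in the first set and from 0.054 to 0.263 in the second, for deposited gene length from -0.118 to -0.019 and from 0.062 to 0.161, and for GC content of the whole transcript from -0.03 to 0.185 and from -0.213 to -0.08. The parts of these properties were not separated. The measure for G ran from -0.084 to 0.078 in the first set and from -0.113 to 0.086 in the second, which overlap.

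**Figure D3:**
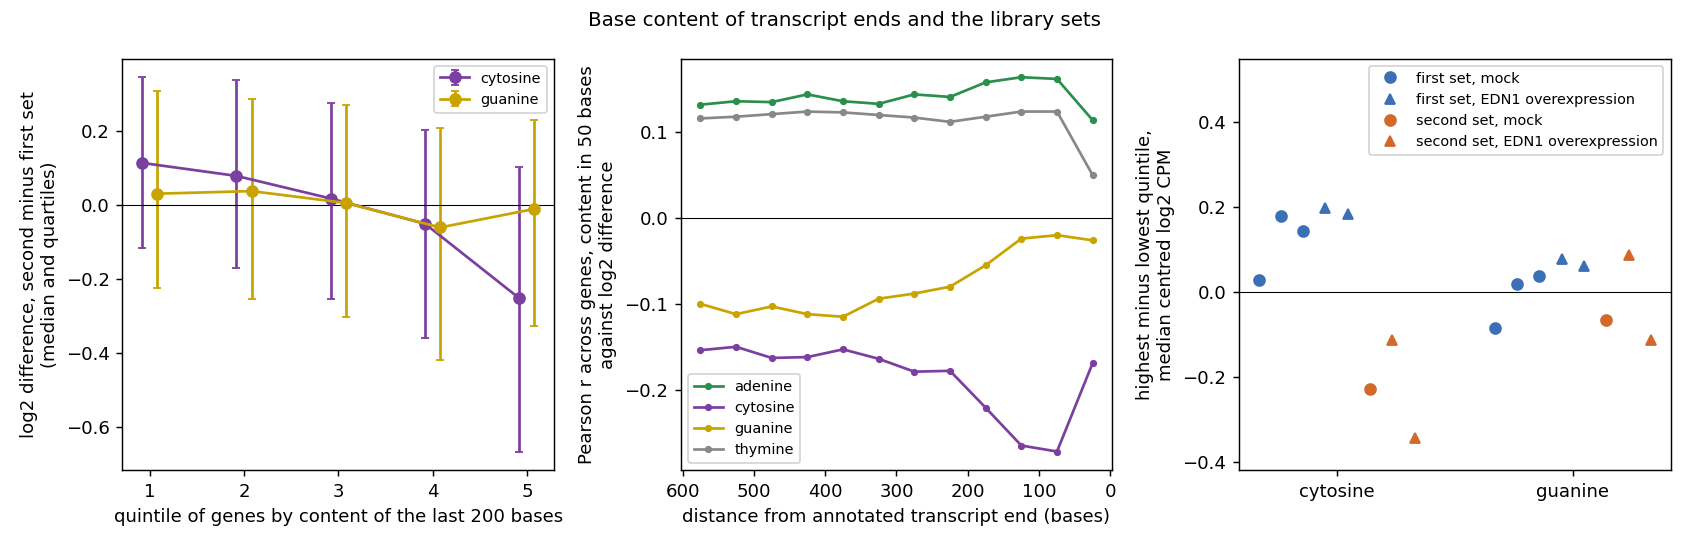
Left, median and quartiles of the log2 set difference (second minus first) by quintile of cytosine or guanine content in the last 200 bases. Middle, Pearson r across 11653 genes between base content of 50-base bins and the set difference, by distance from the annotated transcript end. Right, highest minus lowest quintile in each library; for cytosine the second set lies at -0.112 or below and the first at 0.029 or above, and for guanine the sets overlap.

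A short motif gives the base content by strand in another form. It holds only C and T and was chosen after the data were seen. It is therefore not separate from the C content above. CTCCTC, searched in the last 200 bases of the transcript strand, occurred in 6.9% of all matched transcripts, 6.9% of the higher genes and 21.1% of the lower genes. Its reverse complement GAGGAG, which is the same motif on the opposite strand, occurred in 6.8, 8.8 and 6.4%. The median log2 difference was -0.225 over the 816 genes with CTCCTC and 0.014 over those without it, and 0.008 and 0.003 for GAGGAG. A match is a description of the letters in that window and not a site. The cause of the relation was not tested.

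Other properties moved less. The fitted difference of the highest minus the lowest quintile was -0.365 for C, -0.041 for G, 0.264 for A and 0.158 for T in the last 200 bases, -0.263 for GC content of the whole transcript, 0.175 for the deposited gene length and 0.02 for mean CPM. Lower genes were shorter, with a median deposited length of 2182 bases against 3137 over all genes and 2688 in the higher genes. Pseudogenes were called lower more often than protein coding genes, 25 of 244 (10.246%) against 443 of 11234 (3.943%). They were also called higher more often, 6 of 244 against 88 of 11234.

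Pathways did not part the sets as blocks. Over 29 lists of cellular functions, medians lay between -0.178 and 0.156 on the log2 scale except for 1 list, and the members called were few and scattered, against a background of 0.946% called higher and 4.1% called lower.

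Translation shows how single genes stood out from their group. Of 79 cytosolic ribosomal protein genes, 2 were called higher (RPLP0 and RPL5) and 1 lower (RPS15), and the list median was 0.049. RPLP0, a stalk protein of the large subunit, gave 1714 to 2226 CPM in the first set and 4478, 4315 and 4869 CPM in the second, which is a log2 difference of 1.23. RPL5 differed by 1.20 and RPS15 by -1.03. Of 39 translation factor genes, 3 were called higher: GSPT2, EIF3L (218 ± 32.1 against 500.2 CPM, 1.23) and the elongation factor EEF1A1 (2018 ± 388 against 4320 CPM, 1.16). The median of that list was -0.019. RPLP0, RPL5 and EEF1A1 have many pseudogenes, between which reads can be split.

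Mitochondrial genes were similar in this respect. Of 71 mitochondrial ribosomal protein genes, 2 were called lower, MRPL21 (-1.65) and MRPL34 (-1.18). Of 76 nuclear encoded respiratory chain genes, 3 were called lower, NDUFA7 (-1.47), ATP5J2 (-1.15) and NDUFV3 (-1.07). The list medians were -0.034 and -0.083, and none of either list was called higher.

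In RNA processing, U2AF2 was the only lower gene of 58 splicing genes, beside 2 higher ones, SNRPD3 and HNRNPA1 (1.03, at 5.99 against 11.9 CPM). SNRPD3, a core Sm protein of the spliceosome, gave 138 to 202 CPM in the first set and 416, 590.1 and 428 CPM in the second. None of 20 cleavage and polyadenylation factor genes, whose products set transcript ends, was called, and their median was 0.001. With 5.05% of all tested genes called, a list this short can hold none without differing from the rest. Of the 20, 3 were higher and 3 lower with no overlap between the sets, against 9.83% and 13.4% of all tested genes.

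Among 31 proteasome genes only PSMB1 was called. This beta subunit of the core particle gave 2185, 2526, 2328, 2357 and 2054 CPM in the first set and 677, 659 and 665 CPM in the second, which is a log2 difference of -1.76 (SE 0.13). The other 30 subunits lay within 2-fold or overlapped, and the list median was -0.022. PSMB1 thus stood apart from the other genes of its complex.

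Stress and folding lists stayed close to 0 in their medians. Neither of the lists of 23 heat shock and chaperonin genes (median 0.156) and 22 unfolded protein response genes (median 0.148) held a called gene. Of 25 antioxidant genes, PRDX5 (-1.90) and the ferritin light chain FTL (-1.40) were lower and AKR1B10 (1.08) was higher. FTL, among the most counted of the called genes, gave 5772, 5615, 6399, 5657 and 5411 CPM in the first set and 2282, 2157 and 1965 CPM in the second. FTL also has many pseudogenes. CBS, which opens the route from homocysteine to cysteine, was the only called gene of 24 in the ATF4 list (-1.53), and RRM2B was the only called one of 21 p53 targets, whose median was -0.002.

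The cell cycle lists had medians slightly below 0, but the mean of centred log2 CPM over each list overlapped between the sets. For G1/S it ran from -0.197 to 0.337 in the first set and from -0.481 to 0.232 in the second. For G2/M it ran from -0.583 (mock 2) to 0.252 in the first set and from -0.375 to 0.314 (EDN1 3) in the second. Of 39 G1/S and replication genes, 3 were called lower, CDK4, E2F1 (-1.20) and UNG (-1.16), and the median was -0.146. Of 39 G2/M genes, the phosphatase CDC25C (-1.69) and the mitotic kinase PLK1 (-1.04) were called lower, and the median was -0.178. Histone genes gave 1 lower member of 17, HIST1H2BK (-1.27), and no gene of 32 in the chromatin list was called.

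In metabolism, PKM, the last enzyme of glycolysis, was the only called gene of 27 (307 ± 53.4 against 138 CPM, -1.16). Of 24 one-carbon and cobalamin genes, MMACHC was higher and AMT (-1.35) and GLDC (-1.04), both of glycine cleavage, were lower. None was called among 24 genes of cholesterol synthesis and uptake, 22 of fatty acid and triglyceride synthesis, 24 of fatty acid oxidation and 21 of the citric acid cycle. Their medians were 0.002, 0.095, -0.001 and -0.037.

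Of the 29 function lists, the one with the median farthest from 0 was that of plasma proteins and apolipoproteins, which hepatocytes secrete. Its median was -0.429 over 20 genes. Of these, 3 were called lower, HPX (-1.25), VTN (-1.11) and RBP4 (-1.10), and 9 in all were lower with no overlap between the sets, against 13.4% of all tested genes. RBP4, the carrier of retinol, gave 558, 901, 830.2, 469 and 678 CPM in the first set and 326, 203 and 368 CPM in the second. APOA1, the main protein of high density lipoprotein, gave 363, 331, 422, 359 and 447 CPM in the first set and 212, 229 and 223 CPM in the second. The mean over the list of centred log2 CPM overlapped between the sets, from -0.235 (EDN1 1) to 0.354 in the first set and from -0.517 to -0.053 in the second. ALB (0.29), APOB (0.14) and TTR (0.33) also overlapped.

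This list also had the transcript ends richest in C among the 29, a median of 24.8%. The lists next in C did not share its difference. Glycolysis, at 23.5% C, had a median difference of -0.062. The acute phase, complement and coagulation list, at 23.2% C, had 0.04. VTN had 39.0% C in its last 200 bases, APOC3 (-0.99) 36.0%, APOA1 (-0.82) 35.0% and HPX 31.5%. ALB had 15.5%, AFP (0.92, overlapping) 15% and APOB 17.5%. APOM, at 29.5% C with a difference of 0.21, went the other way, and A1BG, at 26.0%, differed by only -0.03. AMBP and TF, at 23.5% and 23.0%, differed by 0.09 and -0.93. Over all lists together, members called lower had a median of 28.0% C (29 genes), members called higher 18.5% (12 genes) and the others 19% (847 genes). The part of base composition in any list's difference was not tested.

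Among the remaining liver lists, SAA4 (-1.15) was the only called gene of 22 acute phase, complement and coagulation genes (median 0.04), and no gene of 21 in the hepatocyte transcription factor list was called (median -0.002). MT1X (-1.45) was the only called one of 10 genes of metal handling, a list of 8 closely similar metallothionein genes with the zinc transporter SLC30A1 and the metal sensor MTF1. Of 15 noncoding genes, MALAT1, a nuclear long RNA, was higher (2872 ± 673 against 5719 CPM, 1.02), and of 19 interferon genes IRF9 (-1.24) and IFI6 (-1.10) were lower. None of 23 immediate early genes was called.

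**Figure D4:**
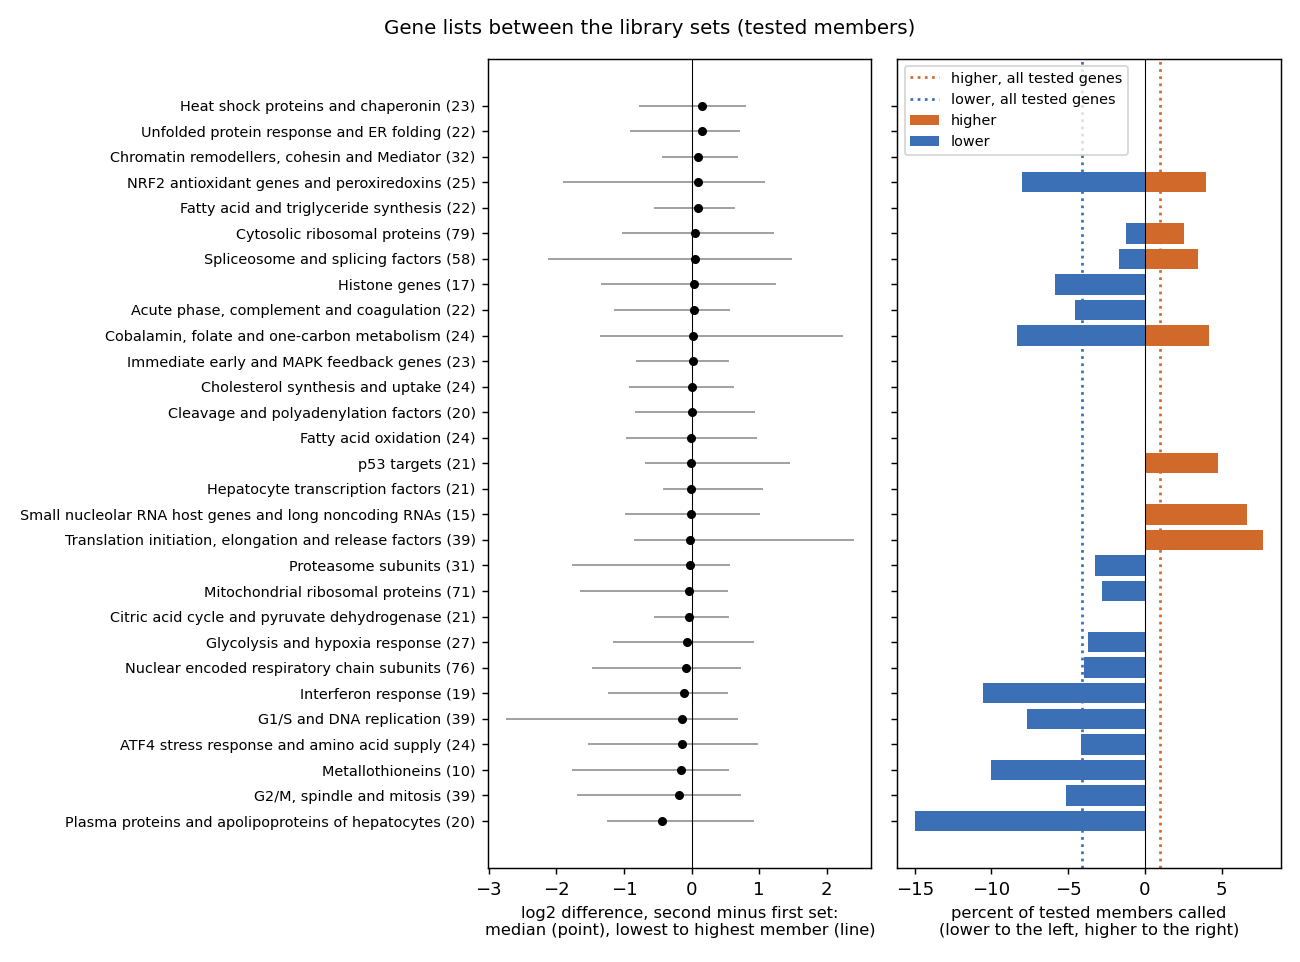
For each of 29 gene lists, with the number of tested members in brackets, the left panel gives the median log2 set difference (point) and the range of its members (line), and the right panel the percent of members called lower (left) or higher (right), with dotted lines at 4.1% and 0.946% for all tested genes. Medians sit near 0 except for plasma proteins at -0.429, while single members reach past 2-fold in both directions.

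Markers of other cell types gave few tested genes. Of 5 fibroblast genes ACTA2 was lower, of 2 endothelial genes TIE1 (-1.80, at 2.04 against 0.589 CPM) was lower, and none of 5 bile duct genes was called. Of 6 genes that mark kidney and other culture lines, PAX8 (-1.09) was lower and PAX2 (1.04, at 0.665 against 1.52 CPM) was higher. The most counted genes of the study were not among the called ones: FN1 differed by 0.87, RPS27A by 0.36, GDF15 by 0.42, IER3 by -0.21 and HSP90AB1 by 0.36.

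Genes that overlap a neighbour or resemble a copy were compared with that partner. PRDX1, an abundant peroxiredoxin, lies on the opposite strand to MMACHC and their exons overlap. PRDX1 gave 1215, 1323, 1203, 1810 and 1213 CPM in the first set and 2425, 3407 and 2139 CPM in the second, and MMACHC had 19.7 to 25.7% of its counts in the first set and 56.9 to 58.6% in the second. Subtracting the MMACHC counts left 975, 1047, 909.5, 1345 and 939 CPM in the first set and 1005, 1469 and 886 CPM in the second. The remainder overlapped between the sets, with a log2 difference of 0.10, whereas both genes as counted did not overlap.

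RPL35 and WDR38 on opposite strands gave the same arithmetic. RPL35, a ribosomal protein, gave 454 to 601 CPM in the first set and 846, 704 and 788 CPM in the second. WDR38 gave 187 to 296 and 440 to 595 CPM, which was 41.2 to 49.3% and 62.5 to 70.3% of RPL35. RPL35 minus WDR38 was 267, 305, 271, 270.3 and 249 CPM in the first set and 251, 264 and 266 CPM in the second, which is a log2 difference of -0.07.

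In other pairs the smaller partner was lower in the second set. AMZ2P1 is named as a pseudogene of AMZ2, a metallopeptidase, and stood at 54.8 to 65.0% of its counts in the first set and 16.7 to 25% in the second. AMZ2 itself differed by -0.95, but AMZ2 minus AMZ2P1 was 22.6 to 36.0 CPM in the first set and 25.6 to 35.0 CPM in the second. TXNDC17, opposite MED31, gave 46.3 to 74.3 CPM after subtraction in the first set and 54.4 to 100.5 CPM in the second. The differences of these 4 pairs overlapped between the sets, but those of 3 other pairs did not. MYO18A minus TIAF1 was 5.2 to 9.8 CPM in the first set and 10.5 to 14.7 CPM in the second (log2 difference 0.87). SKP1 minus SKP1P2 was 132 to 175 and 188 to 218 CPM (0.43), and GSPT1 minus its paralog GSPT2 was 348 to 416 and 278 to 335.5 CPM (-0.33). Whether the partners hold reads in common was not tested.

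**Figure D5:**
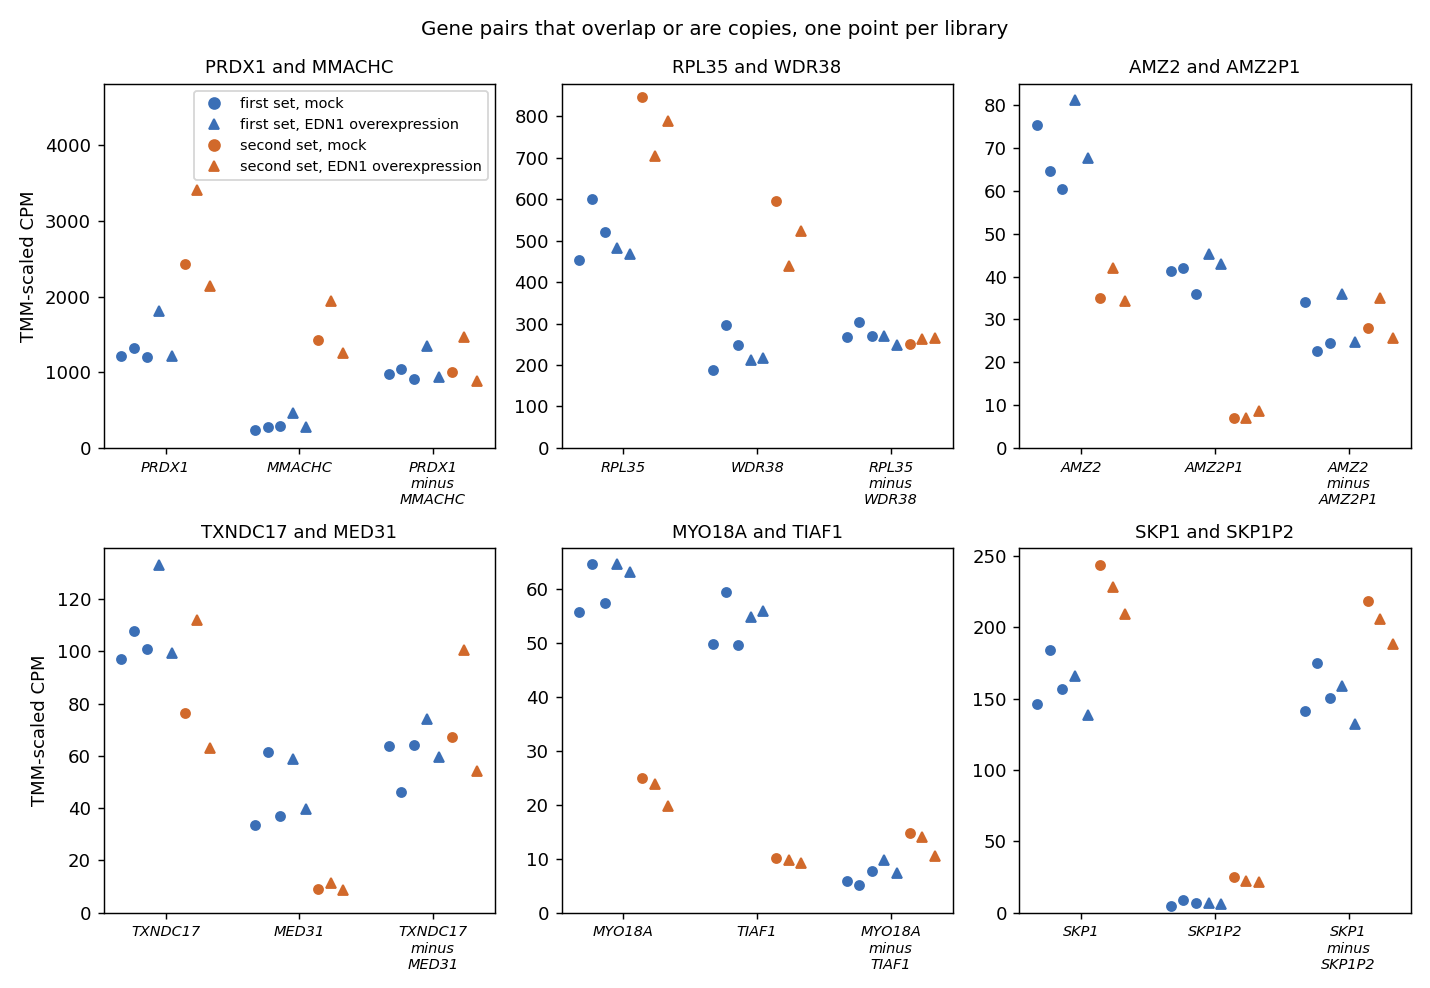
TMM-scaled CPM of 6 gene pairs that overlap or are parent and copy, with the difference of the 2, one point per library. Each smaller partner is apart between the sets. The difference overlaps for PRDX1 minus MMACHC (909.5 to 1345 and 886 to 1469 CPM), RPL35 minus WDR38, AMZ2 minus AMZ2P1 and TXNDC17 minus MED31, and does not for MYO18A minus TIAF1 (5.2 to 9.8 and 10.5 to 14.7 CPM) and SKP1 minus SKP1P2.

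Subtraction reads as a remainder only if every count of the smaller gene is also held by the larger one, which the table cannot show. ACTA2, smooth muscle actin, and its antisense ACTA2-AS1 had nearly the same counts, ACTA2-AS1 being 99.7 to 99.9% of ACTA2 in the first set and 96.0 to 97.7% in the second, so the 2 cannot be told apart. TIAF1 lies on the same strand as MYO18A, a myosin, and had 84.9 to 92.0% of its counts in the first set and 40.8 to 46.8% in the second. MYO18A differed by -1.41, and both were apart between the sets.

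Other partners differed less than the gene itself. TSPAN31, opposite CDK4, gave 12.9 to 15.4 CPM in the first set and 9.8 to 13.6 CPM in the second. GUCD1, opposite SNRPD3, differed by 0.27, RAB11B-AS1 by -0.16 and CXADR, the parent of CXADRP2, by -0.13. SKP1, the parent of SKP1P2 and a ubiquitin ligase subunit, differed by 0.55. U2AF1L4, opposite PSENEN, differed by -1.56.

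Over the whole table, exons overlapping a gene on the opposite strand were about as common among the called genes as elsewhere. They were found in 2406 of 11868 matched genes (20.27%), in 112 of 487 lower genes (23.0%, 95% Wilson interval 19.48 to 26.94%) and in 18 of 104 higher genes (17.31%, interval 11.24 to 25.71%). Counting gene ends within 1 kb as well gave 26.15% of all genes and 32.65% of the lower ones (interval 28.63 to 36.94%, above the share of all genes). These intervals cover counting error only, since genes of 1 neighbourhood are not independent.

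The labelled comparison was then made with the library set as a second term. EDN1 was counted 29, 9, 9 and 20 times in mock 1 to 4 and 2803, 2284, 4764 and 4752 times in EDN1 1 to 4. Its log2 difference was 7.68 (SE 0.31, adjusted p = 4.3e-06 by the quasi-likelihood test of edgeR, Benjamini-Hochberg), and it was the only gene called of 12577 (0.00795%). Without adjustment, 526 of the 12577 genes had a p under 0.05 in edgeR's test, which a share of 0.05 of genes would reach with no difference. The smallest adjusted p after EDN1 was 0.282 in edgeR's test. DESeq2 with the same terms called 7 genes (AFP, CDH1, EDN1, LGI1, PRSS56, TAGLN2 and TMSB4X) and limma voom called EDN1 alone. None of the genes named above for their set difference was called by edgeR in this comparison.

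Within the overexpressing libraries, EDN1 itself stood at 228 and 259 CPM in the first set and 418 and 549 CPM in the second. Whether the EDN1 effect of any gene differed between the sets was tested with an interaction term. The edgeR test called 0 genes (0%), with 22 at an unadjusted p under 0.05 and a smallest adjusted p of 1.00. DESeq2 and limma voom also called 0, with 8 and 20 genes at an unadjusted p under 0.05. The second set holds a single mock library, so this test has little to compare, and a p above the threshold does not show that the effects were equal.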

How the data were processed

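The deposited table gives unnormalized counts for every gene in each of 8 libraries, with a gene length. Per the submitters' processing notes, the authors used Bowtie2, edgeR and hg19. Which tool counted, and whether it used strand, is not given in the sources used here. Rows of 1 symbol were summed (288 symbols on more than 1 of 25737 rows), except MARCH1 and MARCH2. Genes passed edgeR's filterByExpr by group (minimum count 10) and were scaled by TMM.

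The set difference is the fitted log2 value of edgeR 4.0.16 (R 4.3.3) with set and group as terms, with no p. The labelled comparison and the interaction used the quasi-likelihood test of edgeR, Benjamini-Hochberg adjusted over all tested genes and a threshold of 0.05. Alternatives were DESeq2 1.42.0, limma 3.58.1 voom, other scalings and filters, a replicate block and leaving out each library. Log2 CPM used a prior count of 2. The fit was tested on simulated data.

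Library sets, gene lists and named genes were chosen with earlier results of these data known. Named genes are the 5 marks, EDN1, the 15 largest differences per direction among called genes of at least 10 CPM, their partners, up to 4 called members per list, and the 5 most counted genes. WDR38, APOA1, APOC3, ALB, AFP, APOB, APOM, A1BG, AMBP, TF, TTR and RNF126P1 were named after their values were seen. Base content, bins, motif and windows were also chosen after seeing the data. GENCODE release 29 (GRCh38) matched 11868 genes by symbol and gave transcripts for 11849, taking the transcript nearest the deposited length. No coordinates were used with the counts.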

Additional observations from a re-analysis of the deposited data

Results flagged for a closer look

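Of 40 groups of libraries checked, 6 held 1 library far from the other 4 of the first set. Chance would give about 1 group in 20 among independent groups. Most groups here were genes chosen for their set difference and read in the same first set libraries, so no excess can be read from this. CDK4 stood at 211.3 CPM, PHYHD1 at 20.01 CPM and FLJ44635 at 195.9 CPM in mock 2, each on the side of the second set. MMACHC at 464.3 CPM and FSCN1 at 275.7 CPM stood high in EDN1 1, and CUEDC1 stood at 11.34 CPM in EDN1 2, also toward the second set. All of these values remained on the first set's side of the gap, which the rule for calling a gene requires.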

How the results depend on the processing

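The count of 119 higher genes was 259 with no filter on low counts, 487 at 1.5-fold, 8 at 4-fold and 192 when the sets could overlap. The count of 516 lower genes was 1110 at 1.5-fold and 48 at 4-fold. Leaving out 1 library gave 131 to 207 higher genes (199 without mock 2, 207 without EDN1 3) and 505 to 606 lower genes. The rule asks for no overlap, which fewer libraries meet more easily. Across the settings other than the replicate block, all called genes that were still present kept their sign. The demand for no overlap largely fixes that sign, so it is no measure of stability.

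Whether the replicate numbers pair the libraries could not be decided. Deviations from the group mean correlated at 0.477, 0.151, -0.149 and 0.528 between same-numbered libraries. Differently numbered libraries reached 0.521 (mock 4 with EDN1 3). These deviations still hold the set difference, and mock 3 and EDN1 3 lie in different sets. With the replicate block there were 184 higher and 536 lower genes, 631 of the 635 kept their sign and 470 remained called. Only replicate 3 has a library in each set, so the block leaves the set difference to that pair.

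The labelled comparison called 25 genes with no filter and 7 by DESeq2, against 1, and the interaction called 2 with no filter, against 0. The interaction could not be fitted without mock 4. With no filter, the endothelial list median was -0.06 in place of -0.672 and the bile duct median 0.066 in place of -0.19. Neighbours within 1 kb raised the overlap shares to 26.15% and 32.65%. The cause was not tested. The contrast between C quintiles was -0.324 over the last 100 and -0.345 over the last 300 bases, against -0.365. Of 1292 values of single named genes, 42 moved beyond the spread within sets and 0 called values changed sign. Outside the replicate block, the demand for no overlap largely fixes that sign. Depth limits low genes: at a few counts a 2-fold difference is within counting error.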
